A study of Homo sapiens with 26 samples.

Results

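Natural pause codons are codons whose ribosome profiling reads in vehicle-treated cells lay far above the average of their own transcript. They were taken here from the 3 study 1 libraries of Huh7 cells treated with vehicle for 60 min. The reads of these 3 libraries were pooled, transcripts with at least 150 codons and 500 pooled reads were kept, and codons from codon 11 to the 16th from the end were called pause codons when they held at least 50 reads and at least 20 times the mean per codon of the transcript. The rule took 426 codons in 318 transcripts, of 3750237 codons in 6101 transcripts that it could have taken and of 12325 transcripts in all. The members were thus chosen by their pooled density in those 3 libraries, which is given as a description, and the pause codons were followed in the other libraries, which the rule did not use.

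The study treated Huh7 cells, an established line from a human hepatocellular carcinoma, with PF-06446846, a small molecule that binds the translating ribosome, or with vehicle, 0.5% DMSO. Study 1 held ribosome profiling (ribo-seq) libraries after 10 min and 60 min of 1.5 µM compound, 0.3 µM compound or vehicle, with 3 replicates in each of the 6 groups. Study 2 held ribo-seq and poly-A-selected mRNA-seq libraries after 60 min of 1.5 µM compound or vehicle, with replicates 4 and 5 in each of the 4 groups. Cycloheximide, which freezes elongating ribosomes, was present when the cells were harvested and lysed and was not added to the living cells beforehand.

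Ribo-seq sequences the fragment of mRNA that a ribosome shields from nuclease, so that a codon on which ribosomes dwell gives many fragments. A ribosome holds 3 tRNA sites, the A site for the incoming aminoacyl-tRNA, the P site for the tRNA that carries the nascent chain and the E site for the leaving tRNA. Elongation is known to be slow on runs of proline, whose geometry is poor for peptide bond formation and which the factor eIF5A assists, on recoded codons such as the UGA that specifies selenocysteine, and on some nascent chains in the exit tunnel, and termination at a stop codon is slow as well. Each count below belongs to the codon that was assigned to the P site, and density means the reads at a codon divided by the mean reads per codon of its transcript in the same library. mRNA-seq fragments were assigned to codons in the same way and carry no selection for ribosomes, so their density shows how evenly a transcript could be read.

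The 26 libraries held 6414227 to 22224137 reads on coding sequences, and pause codons took 0.362% to 0.744% of these in ribo-seq and 0.134% to 0.150% in mRNA-seq. Of 13 hepatocyte marker genes 12 were listed (ALB was not), with a summed level of 10276 to 34829 CPM (reads scaled to a common library total), while 0 of 4 blood and 0 of 4 fibroblast markers were listed and the 1 listed of 3 endothelial markers reached at most 26.7 CPM. Replicates of a group differed by more than sampling noise in every pair, with a chi-square per degree of freedom of at least 4.45.

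Sequences around the P-site codon were read from GENCODE v44 transcripts on GRCh38 whose coding sequence had the deposited length. This was possible for 347 of the 426 pause codons, at 343 distinct positions, since 4 positions lie in 2 deposited transcripts each and count the same reads. Each sequence below is 30 bases long, 5′ to 3′ on the coding strand, and starts 12 bases before the P-site codon. The sequences that follow were chosen after their values were seen, to show the 4 kinds of context that recurred. The first set shows pause codons followed in frame by TGA, the selenocysteine codon, in 4 of the 5 selenoprotein genes concerned, with the TGA of the A site in capitals.
SEPHS2 codon 59: tccggcatgaagggcTGAggctgcaaggtc
SELENOP codon 58: cttcttcaagccagcTGAtacctgtgcata
GPX3 codon 72: aacgtggccagctacTGAggcctgacgggc
GPX2 codon 39: aatgtggcttcgctcTGAggcacaaccacc

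The second set shows pause codons at which a stop triplet stands in another reading frame, 2 or 4 bases from the first base of the P-site codon, and closes a frame that opens at an AUG before the annotated start codon, here or in another annotated transcript. The stop triplet is in capitals.
ATF4 codon 27: tcgggtttgggggcTGAagaaagcctaggt
CCNC codon 17: caatggattttggaTAAacaagatctgttg
PRRC2A codon 23: tcgctcaacctgttTGAtacgtataagggc
TMEM106C codon 20: cgaaagcaagaagaTGAcagggacggtttg
MGAT4B codon 53: cggttgcacgcagcTGAgcaggagagcctc
KXD1 codon 15: ttctgcggccgcatccTGAgcatggtgaac

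The third set shows pause codons with proline in the E and P sites and aspartate in the A site, with the P-site and A-site codons in capitals.
UBE2S codon 28: accgcagacccaCCCGATggcatcaaggtc
HYAL2 codon 168: cctgactggcctCCAGACcgcatagtcaaa
MIDN codon 49: ctggccgtgccgCCCGACgagacggtggag
SLC23A2 codon 338: gatgtcttccctCCCGACagcacaaagtat
BRD2 codon 431: aagtacaatcccCCAGATcacgatgttgtg

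The fourth set shows pause codons whose bases are also found, with at most 1 difference over 26 bases, in an annotated protein-coding transcript of another deposited gene, untranslated regions included. The P-site and A-site codons are again in capitals.
ACTA2 codon 356: tccaccttccagCAGATGtggatcagcaaa
TUBA8 codon 195: accaacctggtgCCCTACccccgcatccac
HSPA2 codon 201: aacgtgctcatcTTTGACctgggcggtggc

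Outside the 3 libraries that chose them, the pause codons stayed high in ribo-seq and were lower in mRNA-seq. In vehicle at 10 min their median density was 22.1 (quartiles 15.8 to 35.7, range 3.57 to 716), and 258 of 426 were at 20 times the mean or more, where 0.0201% of all codons were. In vehicle ribo-seq of study 2 the median was 17.2 (quartiles 10.1 to 30.4), and 192 of 426 were at 20 times or more, against 0.0335% of all codons. In the matched vehicle mRNA-seq the median was 1.54 (quartiles 0.652 to 5.93), 243 of 426 were under 2 times the mean, 41 of these with 0 reads, and 47 were still at 20 times or more, against 0.0746% of all codons. The medians per library were 24.1, 18.7 and 24.7 in vehicle at 10 min, 16.8 and 18.1 in study 2 vehicle ribo-seq, and 1.70 and 1.43 in vehicle mRNA-seq. Over all 18 study 1 libraries they lay between 18.2 and 32.6, and every ribo-seq library was above every mRNA-seq library. Densities in vehicle at 10 min and in study 2 vehicle ribo-seq had a Spearman correlation of 0.67 across the 426 codons and of 0.54 across the 246 that have a sequence of their own not shared with another gene, which share transcripts and base composition.

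**Figure D1:**
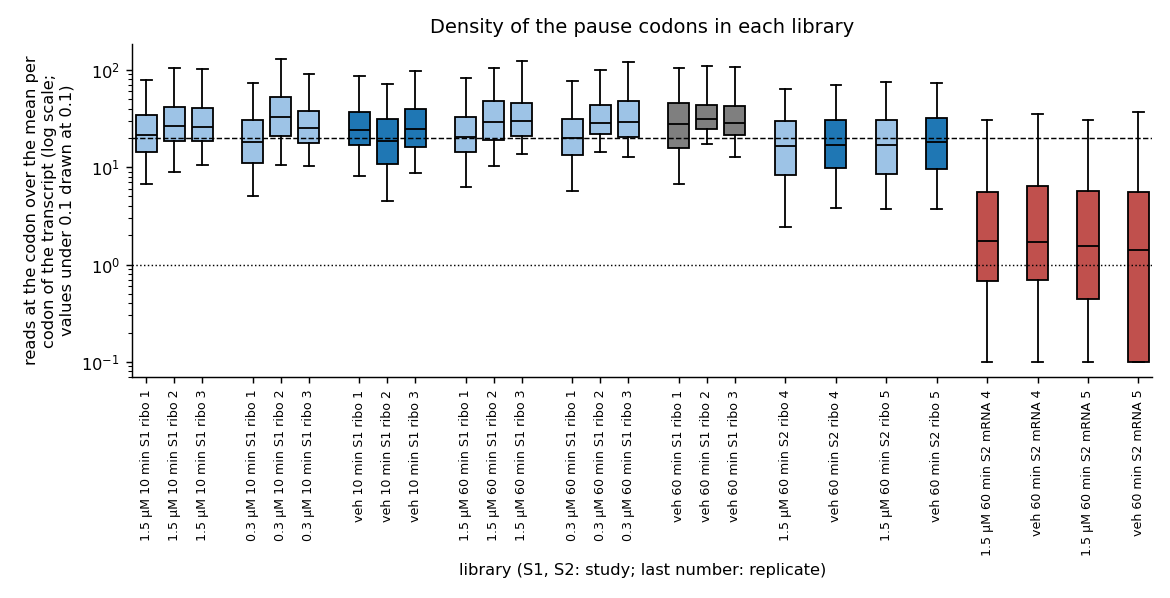
Density of the 426 pause codons in each of the 26 libraries, on a log axis, with boxes at the quartiles, a line at the median and whiskers at the 5th and 95th percentiles. Grey boxes are the 3 vehicle 60 min libraries the rule used, dark blue the other vehicle ribo-seq libraries, light blue the compound-treated ribo-seq libraries and red the mRNA-seq libraries, whose medians lie between 1.43 and 1.76 while those of the ribo-seq libraries lie between 16.7 and 32.6. The dashed line marks 20 times and the dotted line 1 times the transcript mean.

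The rule's own libraries differed in how many pause codons they gave. Of the 426, 142 passed in each of the 3 libraries alone with at least 17 reads, 192 in 2 of them, 90 in 1 and 2 in none. Replicate 2 by itself gave 879 codons, and without it the pooled rule gave 237. The members just inside the threshold were SMARCE1 codon 21, FOXP2 codon 14 and PPIAL4E codon 65, with pooled densities of 20.02, 20.05 and 20.06, and the codons just outside it were GLA codon 86 at 19.99 and CRTAP codon 177 and PITPNA codon 236 at 19.93. Pause codons were found near the start of coding sequences more often than codons in general, with 71 (16.7%) at codons 11 to 50, where 6.51% of all eligible codons lie, and 140 (32.9%) up to codon 100, where 14.6% lie. The mean GC content of the 30-base windows was 53.6%, and that of all eligible codons was 51.3%. Most of the transcripts, 279 of 318, held a single pause codon, while 15 held 3 or more and 99 in all, and 79 pause codons were directly next to another.

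The 426 pause codons were sorted by sequence, each into the first kind that applied. An in-frame stop triplet in the A site was found at 5, bases shared with another gene at 101, a stop triplet in another frame at 106 and a proline codon in the E, P or A site at 35, while 100 had none of these and 79 had no sequence of the deposited length. In vehicle mRNA-seq the median density was 0.62 for the in-frame stops, 1.096 for the out-of-frame stops, 1.41 for the proline codons and 0.78 for the others, and it was 9.25 for the shared codons and 5.96 for those without sequence. All 47 pause codons at 20 times or more in mRNA-seq belonged to the last 2 kinds, 27 with shared bases and 20 without sequence. For these the name of a pause does not follow from the data, since reads without selection for ribosomes piled up at the same codons. The search for shared bases covered only annotated protein-coding transcripts of deposited genes. Whether the other pause codons share bases with other RNAs was not tested. The 246 pause codons with a known sequence of their own had a median density of 20.3 in vehicle at 10 min, 14.4 in study 2 vehicle ribo-seq and 0.936 in mRNA-seq. Of these 246, 239 were higher in study 2 ribo-seq than in mRNA-seq. None exceeded 9.14 in mRNA-seq, where 0.55% of all codons were at 10 times the mean or more. A share over all codons is at hand only for those tested between the assays, as described below. There 244 of 271 pause codons of all kinds had a log2 fold change above 0, as had 47.4% of all codons tested.

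**Figure D2:**
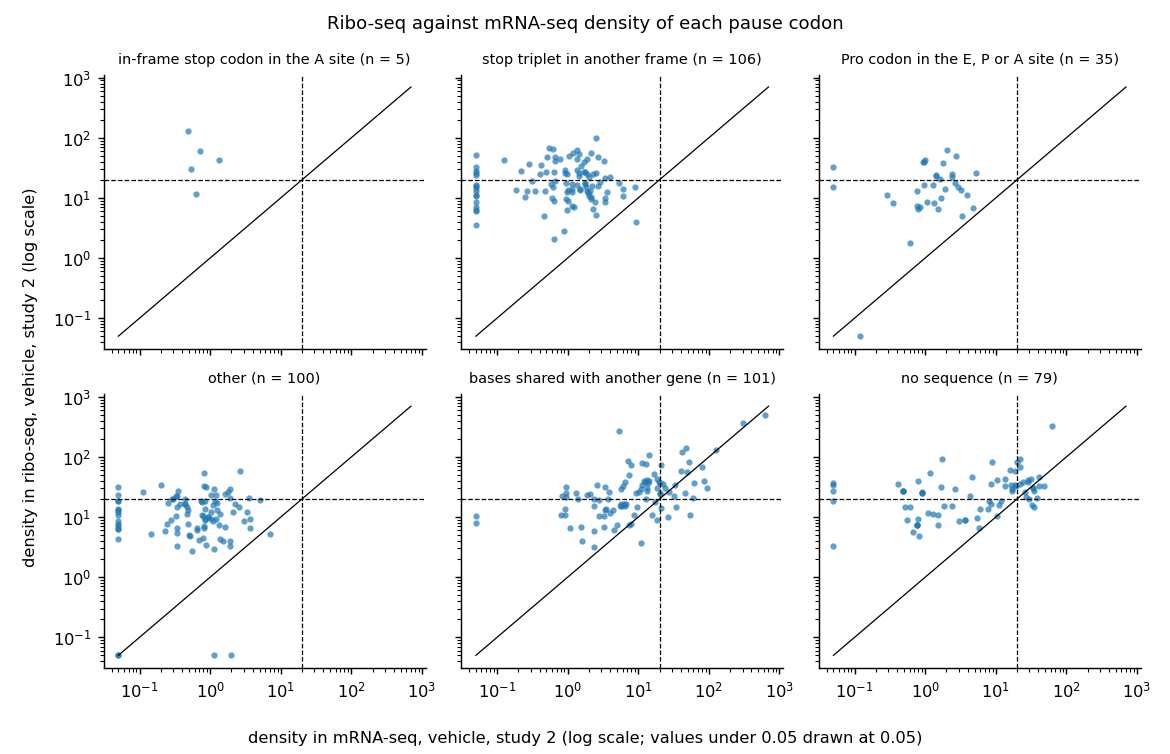
Density of each pause codon in vehicle ribo-seq of study 2 (vertical, log axis) against vehicle mRNA-seq of study 2 (horizontal, log axis), 1 panel per kind of sequence, with each point 1 pause codon pooled over 2 replicates. Dashed lines mark 20 times the transcript mean and the diagonal equal densities. In the 4 panels of codons with bases of their own no point passes the vertical dashed line, while 27 of 101 shared codons and 20 of 79 without sequence do.

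The comparison of vehicle ribo-seq with vehicle mRNA-seq in study 2 asks at which codons fragments were more frequent with a ribosome than in the mRNA alone. Reads per codon were tested against the other reads of the same transcript with edgeR's quasi-likelihood test, adjusted over all 1338209 codons tested at a false discovery rate of 0.1. Of 271 pause codons in transcripts with enough reads, 128 (47.2%) were higher in ribo-seq, where 0.452% of all codons were, and 1 was lower, where 0.352% of all were. Their median log2 fold change was 2.92, and that of all codons was -0.14. Among the 147 tested that had bases of their own, 97 (66.0%) were higher, made up of 4 of 4 in-frame stops, 41 of 63 out-of-frame stops, 15 of 20 proline codons and 37 of 60 others. Of the 67 tested with shared bases 14 were higher and 1 was lower, and of the 57 tested without sequence 17 were higher. The study's methods prepared the ribo-seq and the mRNA-seq library of one number from the same sample, and with the replicate number as a block 78 pause codons were higher and 0 lower. Calls rested on both ribo-seq libraries, since 4 were called higher without ribo-seq replicate 4 and 2 without replicate 5, while 178 and 159 were called higher without mRNA-seq replicates 4 and 5. Calls over all codons moved in the same way, from 6049 to 37 and 11 and to 58257 and 10314, and the block called 842. Each time a library was left out, the lone library was assumed to vary like the other group.

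Pause codons at selenocysteine codons were high in both studies, and SEPHS2 had the highest density in study 2 vehicle ribo-seq of all pause codons with bases of their own. SEPHS2, which makes the selenium donor for selenocysteine and is itself a selenoprotein, paused at codon 59 (chr16:30445551-30445553, minus strand, in the only exon), 1 codon before its TGA. Its density was 184, 187 and 222 in the vehicle 10 min libraries, 121 and 140 in study 2 vehicle ribo-seq, and 1.04 and 0.152 in vehicle mRNA-seq. All 5 ribo-seq values lay more than 100 times above both mRNA-seq values, and the log2 fold change was 8.35 (SE 0.82, edgeR adjusted p = 5.48e-18). SELENOP, the plasma protein that carries selenium out of the liver, stood at 64.2, 49.4 and 76.7 in vehicle at 10 min at codon 58 (chr5:42808180-42808182, minus strand, exon 2 of 5), at 43.3 and 43.5 in study 2 ribo-seq and at 1.12 and 1.46 in mRNA-seq. It too was without overlap between ribo-seq and mRNA-seq (log2 fold change 5.27, edgeR adjusted p = 1.7e-08).

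The glutathione peroxidases, which reduce hydroperoxides with selenocysteine in the active site, gave further pause codons of this kind. GPX3 codon 72 (chr5:151025466-151025468, plus strand, exon 2 of 5) had densities of 29.1, 23.3 and 66.3 in vehicle at 10 min, 30.5 and 30.1 in study 2 ribo-seq and 0.155 and 0.809 in mRNA-seq (log2 fold change 5.95, edgeR adjusted p = 4.92e-06). GPX2 codon 39 (chr14:64942610-64942612, minus strand, exon 1 of 2) had 16.3, 25.0 and 39.6, then 10.6 and 12.7, and 0.897 and 0.388 in the same order. In both genes the ribo-seq values stood apart from the mRNA-seq values.

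The rule could have taken 13 codons followed in frame by TGA, of which the other 8 stayed below its threshold. GPX4 codon 45, of the peroxidase that protects membrane lipids, had a density of 17 in vehicle at 10 min, 13.1 in study 2 ribo-seq and 1.47 in mRNA-seq. The 6 later selenocysteine codons of SELENOP had 3.07 to 11.9 in vehicle at 10 min, well under the 61.7 of its first one, and GPX1 codon 48 had 0 reads in all 3 groups, mRNA-seq included, so that whether reads could be placed there is not known. Over the 13 codons, reads in vehicle at 10 min were 28.6 times the sum of their transcripts' means, and the same ratio was 21.3 in study 2 ribo-seq and 0.975 in mRNA-seq. GPX1 held a pause codon a little upstream of its selenocysteine codon, at codon 42, with 26.5, 17.5 and 26.1 in vehicle at 10 min, 13.9 and 11.2 in study 2 ribo-seq and 1.69 and 0.942 in mRNA-seq.

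Stop triplets outside the reading frame were found at 106 of the 246 pause codons with bases of their own. TGA, TAA and TAG were searched on the coding strand of the window, a search that was added after the sequences had been seen. Of these 246 pause codons, 65 (26.4%) had a stop triplet starting 2 bases from the first base of the P-site codon, where 6.01% of all eligible codons do, and 41 (16.7%) had one starting 4 bases from it, where 4.43% do. At the neighbouring offsets the shares were close to or below those of all codons, as at offset 1 with 4.07% against 4.43% and at offset 5 with 4.88% against 6.01%. At offset 2 the triplet was TGA in 56, TAA in 7 and TAG in 2, and at offset 4 it was TGA in 28, TAG in 10 and TAA in 3. These offsets put the stop triplet within 1 base of the A site, in the frame 1 base back or 1 base ahead.

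**Figure D3:**
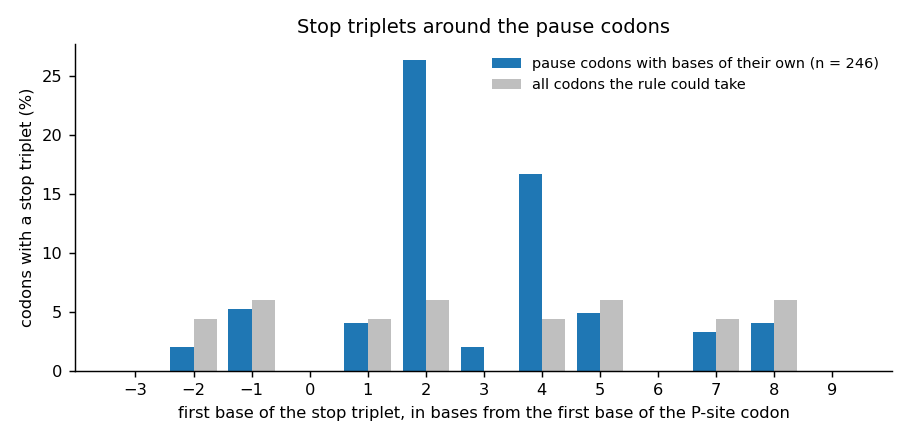
Share of codons (vertical, percent) with a stop triplet that starts at each offset from the first base of the P-site codon (horizontal, bases), for the 246 pause codons with bases of their own (blue) and all eligible codons with a sequence (grey). The blue bars reach 26.4% at offset 2 and 16.7% at offset 4, with grey bars of 6.01% and 4.43%, and at offset 3 the blue bar is the 5 selenocysteine codons.

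Stop triplets and encoded residues overlap, because TGA at offset 2 makes the A-site codon start with GA, which encodes aspartate or glutamate, and a stop at offset 4 makes it end in TG or TA, as in methionine, valine and leucine codons. Of the 109 pause codons with aspartate or glutamate in the A site, 56 (51.4%) had a stop triplet at offset 2, against 30.3% of all codons with these residues there. Of the 62 with valine, methionine or leucine in the A site, 39 (62.9%) had one at offset 4, against 21.7%. Over all eligible codons with aspartate or glutamate in the A site, 0.690% were at 10 times the mean or more in vehicle at 10 min with the stop triplet and 0.488% without it, where 0.174% of all codons were. The corresponding shares in study 2 ribo-seq were 1.40% and 1.06%, where 0.366% of all codons were, and in mRNA-seq 0.596% and 0.502%, where 0.55% were. With a stop triplet at offset 2 but neither residue the share was 0.183% in vehicle at 10 min, close to that of all codons. With valine, methionine or leucine in the A site it was 0.306% with a stop triplet at offset 4 and 0.0981% without it in vehicle at 10 min, 0.432% and 0.187% in study 2 ribo-seq, and 0.588% and 0.567% in mRNA-seq. Reads at these codons with the stop triplet were 1.07 times the transcript means in vehicle at 10 min and 0.952 times in study 2 ribo-seq. Without it they were 0.888 and 0.817 times. With aspartate or glutamate in the A site, reads were 1.90 times the means with the stop triplet at offset 2 in both groups. Without that triplet they were 1.61 times in vehicle at 10 min and 1.66 times in study 2 ribo-seq.

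Where the out-of-frame stop closed a frame that starts upstream of the coding sequence, at an AUG of the same transcript, ribo-seq reads were more concentrated than at other out-of-frame stops. Of the 106 pause codons with such a stop, 11 (10.4%) ended a frame that opens at an AUG before the start codon of the same transcript, against 0.0926% of all codons with an out-of-frame stop, and 3 (2.83%) one that does so in another annotated transcript, against 0.116%. Upstream frames can end only near the start of the coding sequence, and up to codon 50 the first share was 8 of 25 (32.0%), against 1.44%. A further 47 (44.3%, against 20.5% of all codons with such a stop) ended a frame with an AUG inside the coding sequence and 45 (42.5%, against 79.3%) a frame with none. Among all 332 eligible codons that end an upstream frame, 13 of them pause codons, 21.1% were at 10 times or more in vehicle at 10 min, 19.3% in study 2 ribo-seq and 0.602% in mRNA-seq. Their reads were 3.32, 3.09 and 0.902 times those of the transcript means in these groups. Where the upstream AUG lies in another annotated transcript (417 codons), 3.12% were at 10 times or more in vehicle at 10 min and reads were 1.31 times the means. Of the 73630 codons that end a frame with an AUG inside the coding sequence, 0.617% were at 10 times or more and reads were 1.297 times the means, and of the 284084 without any AUG 0.338% were and reads were 1.43 times.

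ATF4, the transcription factor of the integrated stress response, is known for an upstream frame that runs over its start codon, and it paused at codon 27 (chr22:39521524-39521526, plus strand, exon 2 of 3), where that frame ends. Its density was 82.1, 111 and 88.2 in vehicle at 10 min, 61.9 and 77.9 in study 2 vehicle ribo-seq and 0.475 and 0.610 in mRNA-seq (log2 fold change 7.55, SE 0.84, edgeR adjusted p = 1.25e-13). The 3 libraries of the rule gave lower values here than the other vehicle ribo-seq libraries, 40.6, 50.5 and 47.7. CCNC, which encodes cyclin C of the Mediator kinase module, paused at codon 17 (chr6:99562930-99562932, minus strand, exon 2 of 12) at the end of an upstream frame of 37 codons, with 42.4, 34.4 and 40.1 in vehicle at 10 min, 45.9 and 39.97 in study 2 ribo-seq and 0.288 and 0 in mRNA-seq (log2 fold change 8.24, edgeR adjusted p = 1.91e-09). Ribo-seq and mRNA-seq did not overlap in either gene.

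The other upstream frames ended near the start of the coding sequence too, between codons 15 and 64. That of PRRC2A, an RNA-binding protein, had 28 codons and ended at codon 23 (chr6:31622856-31622858, plus strand, exon 2 of 31), where the densities were 57.2, 46.0 and 88.0 in vehicle at 10 min, 24.7 and 31.3 in study 2 ribo-seq and 0.726 and 0.303 in mRNA-seq. That of the membrane protein TMEM106C had 28 codons and ended at codon 20 (chr12:47964294-47964296, plus strand, exon 2 of 8), with 41.8, 55.2 and 43.1, then 33.5 and 40.4, and 0.491 and 0.0913. That of KXD1, a subunit of the complex that positions lysosomes, had 25 codons and ended at codon 15 (chr19:18562099-18562101, plus strand, exon 2 of 5), with 43.0, 49.7 and 33.4, then 43.3 and 44.8, and 1.58 and 1.14. All 3 were called higher in ribo-seq than in mRNA-seq by edgeR, with log2 fold changes of 5.75 (adjusted p = 7.89e-05), 7.27 (adjusted p = 1.97e-09) and 5.88 (adjusted p = 3.84e-08). MGAT4B codon 53 (chr5:179801908-179801910, minus strand, exon 2 of 15), of an enzyme that branches N-glycans, closed a frame of 67 codons with 27.7, 47.0 and 28.6, then 33.7 and 55.9, and 1.01 and 0.376, and was not tested for lack of reads.

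Among pause codons whose out-of-frame stop belonged to no upstream frame, TRIB3 codon 22, of a pseudokinase induced by ATF4, reached a density of 86.0 in vehicle at 10 min, 49.5 in study 2 ribo-seq and 1.05 in mRNA-seq, with no AUG in the frame that it closes. HMGXB3 codon 255, of a DNA-binding protein, closed a frame of 65 codons inside the coding sequence with 93.6, 56.5 and 2.15, and BCL3 codon 123, of a nuclear NF-kappa-B cofactor, one of 120 codons with 93.5, 48.7 and 0.514. The same order, ribo-seq far above mRNA-seq, held in each of them.

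The residues at the 3 tRNA sites differed from those of all codons. In the A site 27.2% of the 246 pause codons encoded aspartate and 17.1% glutamate, against 5.12% and 7.47% of all eligible codons, and 12.2% valine against 6.14%. In the P site glycine was found at 17.9%, aspartate at 12.6% and proline at 12.2%, against 6.39%, 5.11% and 6.12%. In the E site proline was found at 18.7% and arginine at 14.6%, against 6.12% and 5.57%. Among the 135 pause codons with no stop triplet at offset 2, 3 or 4, the A site still held aspartate at 20.7% and glutamate at 18.5%, against 3.88% and 5.92% of all such codons, the P site glycine at 20.7%, against 6.58%, and the E site proline at 18.5%, against 6.24%. Aspartate in the P site was at 4 (2.96%) of these, against 4.56% of all such codons. At least 3 lysines or arginines among the 8 residues before the P site were found at 26 (10.6%), against 7.06% of all codons.

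**Figure D4:**
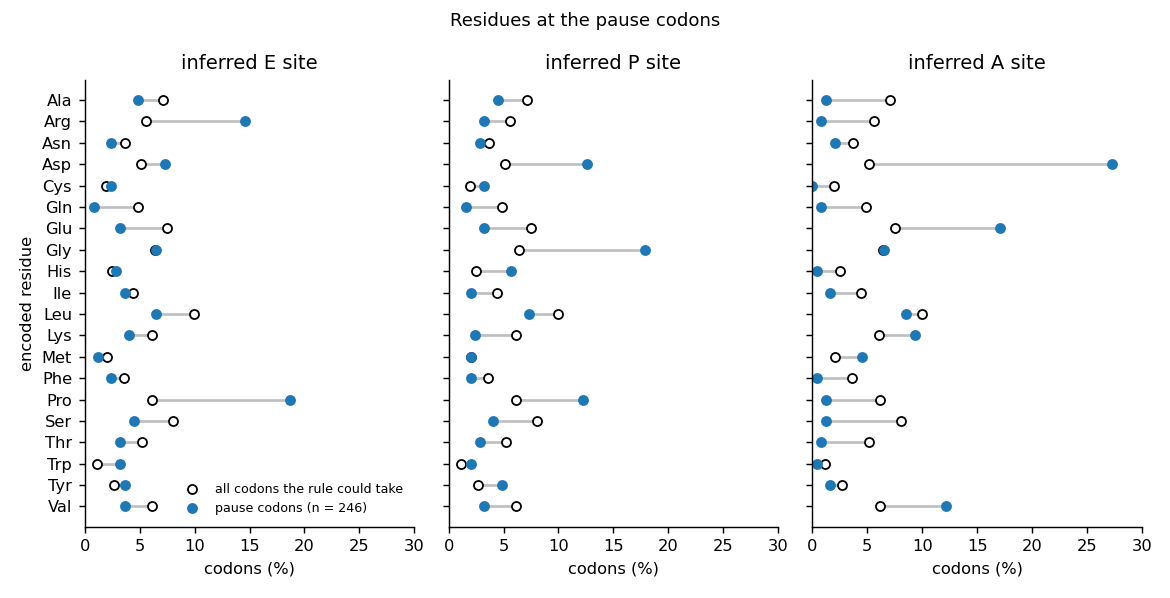
Share of codons (horizontal, percent) that encode each residue (vertical) in the inferred E, P and A sites, for the 246 pause codons with bases of their own (filled) and all eligible codons with a sequence (open). The widest gaps are aspartate in the A site, 27.2% against 5.12%, glycine in the P site, 17.9% against 6.39%, and proline in the E site, 18.7% against 6.12%.

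The residues came in combinations. Proline in both E and P sites was found at 20 pause codons (8.13% against 0.627% of all codons), and proline in the E site with aspartate or glutamate in the A site at 36 (14.6% against 0.653%). Proline, proline and aspartate in the E, P and A sites made up 17 pause codons, and over all 665 eligible codons with these 3 residues 14.9% were at 10 times or more in vehicle at 10 min, 27.8% in study 2 ribo-seq and 0.602% in mRNA-seq. Reads at these 665 codons were 6, 8.13 and 0.931 times those of the transcript means. Over the 11012 codons with glycine and aspartate in the P and A sites, 1.63% were at 10 times or more in vehicle at 10 min, and reads were 2.16, 2.56 and 0.980 times the means.

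UBE2S, the E2 enzyme that extends ubiquitin chains for the anaphase-promoting complex, paused at such a codon, 28 (chr19:55406882-55406884, minus strand, exon 2 of 5). Its density was 45.9, 43.3 and 35.3 in vehicle at 10 min, 41.3 and 45.8 in study 2 vehicle ribo-seq and 1.00 and 1.01 in mRNA-seq, with no overlap between the assays (log2 fold change 5.74, SE 0.71, edgeR adjusted p = 1.28e-10). The hyaluronidase HYAL2 at codon 168 (chr3:50319986-50319988, minus strand, exon 2 of 4) had 54.4, 39.7 and 34.9, then 55.4 and 72.5, and 1.22 and 2.62 (log2 fold change 5.21, edgeR adjusted p = 6.58e-07). MIDN, midnolin, which brings nuclear proteins to the proteasome, had 28, 15 and 40.9 at codon 49 (chr19:1250441-1250443, plus strand, exon 2 of 8), then 44.2 and 29.0, and 1.70 and 1.82 (log2 fold change 4.55, edgeR adjusted p = 1.06e-06). SLC23A2, a vitamin C transporter, had 27.5, 22.6 and 16.8 at codon 338 (chr20:4874024-4874026, minus strand, exon 11 of 17), then 32.3 and 32.0, and 0 reads in both mRNA-seq libraries.

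The acetyl-lysine reader BRD2 paused at these residues at codon 431 (chr6:32977532-32977534, plus strand), held by transcripts of 802 and 552 codons that count the same reads. Its density in the longer one was 58.5, 36.6 and 48.5 in vehicle at 10 min, 45.3 and 32.7 in study 2 ribo-seq and 2.13 and 0 in mRNA-seq. It was not tested against mRNA-seq for lack of reads, and every ribo-seq value was above every mRNA-seq value. DDX18, a helicase of ribosome biogenesis, was lower at codon 503, at 20.7, 16.5 and 1.30 in vehicle at 10 min, study 2 ribo-seq and mRNA-seq (log2 fold change 3.62, edgeR adjusted p = 0.0183), as was its fellow factor NOP14 at codon 490 with 18.2, 26.2 and 5.29 (log2 fold change 2.51, edgeR adjusted p = 0.0932).

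The 100 pause codons with neither a stop triplet near the A site, shared bases nor proline at the 3 sites, of which some hold the acidic or glycine residues above, had a median density of 19.9 in vehicle at 10 min and 11.1 in study 2 vehicle ribo-seq. In the latter the quartiles were 6.53 and 18.6, and 4 of the 100 had 0 reads. The codons named next all stood above the upper quartile there. EGLN1 codon 55, of the prolyl hydroxylase that senses oxygen, had 25.2, 33.5 and 0.201 in vehicle at 10 min, study 2 ribo-seq and mRNA-seq (log2 fold change 7.14, edgeR adjusted p = 1.31e-05). STK24 codon 303, of a Ste20-type kinase, had 22.4, 26.5 and 0.113 (log2 fold change 7.62, edgeR adjusted p = 4.36e-07). OAZ1, antizyme, which inhibits ornithine decarboxylase, held pause codons at 16, 17 and 18, of which codon 17 had 19.2, 15.3 and 36.9 in vehicle at 10 min, 30.8 and 34.9 in study 2 ribo-seq and 0.934 and 0.708 in mRNA-seq (log2 fold change 5.64, edgeR adjusted p = 1.28e-10). Among the mitochondrially encoded genes, MT-ND6 codon 158, of a complex I subunit, had 27.5, 23.6 and 1.02 (log2 fold change 4.75, edgeR adjusted p = 9.61e-07).

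Gene lists of known roles were compared with the pause codons, which lay in 318 of the 6101 transcripts that the rule could take. Of 37 genes known for programmed pausing or recoding 29 were measured, and 5 of these held 8 pause codons, of which 7 of 7 tested were higher in ribo-seq than in mRNA-seq, where 47.2% of all tested pause codons and 66.0% of those with bases of their own were. A pause codon was counted anywhere in a listed gene, whether or not it lay at the known site. Of 37 endoplasmic reticulum chaperone and translocon genes 3 held 1 pause codon each, and of these PDIA3 codon 200, in a disulfide isomerase, was higher in ribo-seq (log2 fold change 3.39, edgeR adjusted p = 0.000644). HYOU1 codon 549, in a chaperone, had a log2 fold change of 1.53 (edgeR adjusted p = 0.573) and SRPRA codon 83, in the receptor of the signal recognition particle, 2.06 (edgeR adjusted p = 0.648). The ribosome rescue list of 23 genes held 1 pause codon, ASCC2 codon 617, at 10.7 in vehicle at 10 min and 2.07 in study 2 ribo-seq, and the cytoskeleton and glycolysis list 1, FLNA codon 1186, at 13.8 and 5.14. No pause codon lay in the 17 elongation factor genes, the 37 genes for secreted plasma proteins or the 21 genes sensitive to PF-06446846 that were measured from the lists, which are too few for a count of 0 to set them apart. The lists do not hold every gene of their kind. SELENOP was not on the plasma protein list, and ACTA2 and TUBA8 were not on the cytoskeleton list, though all hold pause codons.

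Pause codons with shared bases lay in paralogs, such as those of actin and tubulin, and in repeats. The study counted a read at each of up to 5 equally good best positions. Where the bases are identical, reads of the gene and of its partner therefore cannot be told apart. Where 1 base differs, a read may fit 1 of the genes better, and these cases were not separated here. POTEF, whose C-terminal part resembles actin, held 16 pause codons between codons 789 and 1060, each with bases of ACTB, and TUBA8 held 8 between codons 171 and 199 with bases of TUBA1B. ACTA2, smooth muscle actin, had 180, 144 and 189 in vehicle at 10 min at codon 356 (chr10:88935289-88935291, minus strand, exon 9 of 9), 148 and 136 in study 2 ribo-seq and 51.4 and 42.9 in mRNA-seq. The neighbouring codon 355 was higher in mRNA-seq, at 102 and 88.6, than in study 2 ribo-seq, at 27.5 and 34.7. TUBA8 codon 195 (chr22:18126759-18126761, plus strand, exon 4 of 5) was the 1 pause codon lower in ribo-seq than in mRNA-seq, with 12.3 and 8.21 against 51.0 and 57.6 (log2 fold change -2.57, edgeR adjusted p = 0.0314), and it was not called with the replicate block.

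Other shared codons were among the highest of all. HSPA2, a testis heat shock protein, had 147 in vehicle at 10 min at codon 201, 129 in study 2 ribo-seq and 125 in mRNA-seq, with bases of HSPA8. ZFHX3 codon 2607, in a run of glycine codons found with at most 1 difference in 67 other genes, had 716, 364 and 301, CREBBP codon 2172, in a run of glutamine codons found in 9 other genes, SRP14 among them, 279, 86.6 and 7.23, and FLNC codon 141, with bases of FLNA, 162, 120 and 41.8. PTPRS codon 1365, with bases of PTPRF, had 279 and 272 in ribo-seq and 5.38 in mRNA-seq. Without sequence, a transcript of 1650 codons that the study's gene table assigns to TTBK2 held the most pause codons, 30 between codons 338 and 598, and its codon 392 had 142, 65.6 and 147 in vehicle at 10 min and 40.1 and 40.6 in mRNA-seq. MED12 codon 1923, also without sequence, had 164, 331 and 62.5.

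The surroundings of the pause codons separated the kinds further. In vehicle at 10 min the median density was 2.44 at the codon before, 22.1 at the pause codon and 3.39 at the codon after. Over codons 2 to 20 away, the mean density on each side was taken for each pause codon. The median of these means was 1.34 before and 0.984 after the pause codon, with the upstream side higher at 264 of 426. In study 2 vehicle ribo-seq it was 1.34 and 0.981, with the upstream side higher at 284. In mRNA-seq the 2 sides were at 1.14 and 1.06, with the upstream side higher at 232. The sides were not compared for all codons, so whether these counts differ from those of codons in general is not known. At the 135 proline and other pause codons with bases of their own, the median rose to 1.12 at 11 codons upstream in vehicle at 10 min, from 0.79 at 20 codons upstream, and to 1.19 at 10 codons upstream in study 2 ribo-seq, from 0.64. In mRNA-seq the median of the same codons was 1.08 at 10 codons upstream and 0.97 at 20 codons upstream. At pause codons with a stop triplet in another frame it was 1.11 at 11 codons upstream in vehicle at 10 min, 1.26 at 10 codons upstream in study 2 ribo-seq and 0.67 there in mRNA-seq. Shared codons had medians of the mean over codons 2 to 20 away of 1.80 before and 1.55 after in vehicle at 10 min. At the single codon 20 away on either side their median density was 0.04.

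**Figure D5:**
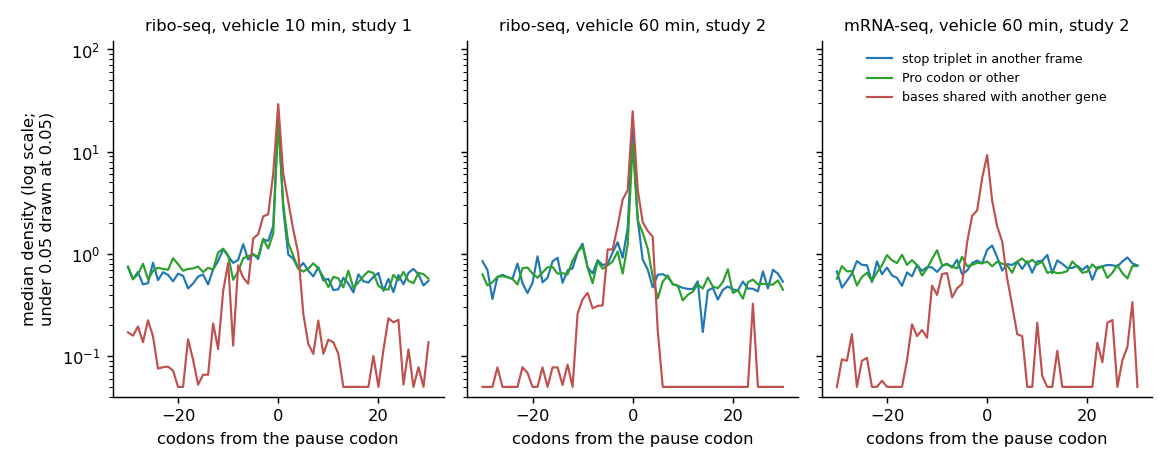
Median density (vertical, log axis) at each codon from 30 before to 30 after the pause codon (horizontal) in vehicle ribo-seq at 10 min, vehicle ribo-seq of study 2 and vehicle mRNA-seq of study 2, for pause codons with a stop triplet in another frame (blue), proline or other pause codons (green) and those with bases shared with another gene (red). Blue and green lines rise far above 1 only in ribo-seq at the pause codon, where the blue line is at 1.096 in mRNA-seq. About 10 codons upstream they are near 1 in ribo-seq, and the green line also in mRNA-seq. The red line also peaks at 9.25 in mRNA-seq and is near 0 at 20 codons on both sides.

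The comparisons with PF-06446846 ask whether the compound changed the share of a transcript's ribosomes at these codons. At 10 min with 1.5 µM, edgeR's quasi-likelihood test on 131642 codons called 2.35% higher and 4.27% lower than in vehicle, and of 407 pause codons tested it called 7 (1.72%) higher and 4 (0.983%) lower. The read filter took the mean over both groups, so any codon could pass it through the group where it was high. Some of the 4 lower pause codons, named below, passed only in this way, and their calls carry no weight. The counts are thus a description. The median log2 fold change of the pause codons was 0.15, and that of all codons was 0.03. LAP3 codon 258, in leucine aminopeptidase, had densities of 5.38, 2.53 and 15.8 in vehicle and 31.8, 28.5 and 21.8 with compound (log2 fold change 1.85, SE 0.51, edgeR adjusted p = 0.0606). PQBP1 codon 37, in a splicing factor that binds polyglutamine, had 14.8, 6.38 and 12.8 against 35.1, 33.8 and 24.1 (log2 fold change 1.57, edgeR adjusted p = 0.0523), and PPIAL4E codon 65, which shares bases with the prolyl isomerase gene PPIA, 9.11, 4.05 and 12.5 against 24.1, 17.9 and 21.1 (log2 fold change 1.41, edgeR adjusted p = 0.0785). The groups did not overlap in these 3. They were named for high fold changes among the codons called, so the lack of overlap adds no support. Whether they passed the read filter only through the treated group is not shown.

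Of the 4 lower pause codons, ZFHX3 codon 2606 and SGF29 codon 57 passed the filter of a mean of 10 reads per library only through the vehicle group, so their values are given without a test. ZFHX3 codon 2606, in the same glycine run as codon 2607, had 320, 807 and 244 in vehicle and 18.9, 114 and 91.5 with compound, on 1 to 10 reads per treated library. SGF29 codon 57, in a subunit of the SAGA complex, had 25.1, 21.9 and 24.9 in vehicle and 6.65, 7.10 and 11.7 with compound. Codon 409 of the transcript assigned to TTBK2 fell from 41.5, 61.3 and 31.4 to 23.2, 16.9 and 19.2 (log2 fold change -1.21, edgeR adjusted p = 0.069). None of the 5 in-frame and 101 out-of-frame stop pause codons tested was called in either direction. Of all pause codons tested 1.72% were called higher and 0.983% lower, and of all codons 2.35% and 4.27%. The counts rested on single libraries, since 0 pause codons were called higher without 1.5 µM replicate 1 or 2 or without vehicle replicate 2, 1 without 1.5 µM replicate 3, 4 without vehicle replicate 1 and 22 without vehicle replicate 3. Over all codons the higher calls moved as well, from 3097 to 304, 69 and 130 in the settings with 0, to 1442 and 2133 in the next ones and to 8911 in the last. Lower calls numbered 0 without any one of the 1.5 µM replicates or vehicle replicate 2 and 1 without vehicle replicate 1.

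In the other comparisons edgeR called no pause codon in either direction. With 0.3 µM at 10 min, 417 were tested and 2 had an unadjusted p under 0.05, as had 2423 of all 164699 codons. DESeq2 called 0 of the pause codons, and edgeR called 0.0% of all codons. Between 1.5 µM and 0.3 µM at 60 min, 425 were tested and 4 had an unadjusted p under 0.05, as had 2186 of all 175674 codons. DESeq2 called 0 of the pause codons, and edgeR again called 0.0% of all codons. The 60 min vehicle libraries of study 1 entered no test, because they had chosen the pause codons. With 1.5 µM at 60 min in study 2, 341 were tested and 8 had an unadjusted p under 0.05, as had 6882 of all 152565 codons. DESeq2 called 0 of the pause codons, and edgeR called 0.0721% of all codons higher and 0.00131% lower. In study 2, 2 were called lower without 1.5 µM replicate 5. The median log2 fold changes of the pause codons were 0.20, -0.01 and -0.09 in these 3 comparisons, and those of all codons were 0.02, -0.01 and 0.00. The share of pause codons above 0 was 71.5%, 49.2% and 40.2%, and that of all codons 52.0%, 49.4% and 49.8%. The 2 comparisons at 10 min share their vehicle libraries, and the study 2 comparison shares its vehicle libraries with that of ribo-seq against mRNA-seq.

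Some pause codons were far lower in vehicle at 10 min than in the 60 min libraries of the rule. SLC38A10 codon 503, in an amino acid transporter, had 2.47, 2.72 and 7.03 at 10 min and 13.9, 39.7 and 19.0 at 60 min. NSD2 codon 708, in a histone methyltransferase, had 6.46, 6.63 and 7.50 at 10 min and 2.11, 57.5 and 36.3 at 60 min, so that its groups overlapped. These values are a description without a test, since the rule used the 60 min libraries. In study 2 vehicle ribo-seq the 2 codons had 15.4 and 34.2, and 15.3 and 9.42.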

How the data were processed

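The deposited tables give raw read counts per codon of each transcript, which the authors made by assigning aligned reads to the inferred P-site codon. Bowtie 1.1.2 and kallisto 0.42.5 are named in the submitters' processing notes, and reads with up to 5 equally good positions were counted at each. Counts were used as deposited. Codon counts were tested with edgeR 4.0.16 in R 4.3.3 (glmQLFit and glmQLFTest), with the log of the transcript's other reads as offset. Codons needed a mean of at least 10 reads per library. For ribo-seq against mRNA-seq, transcripts instead needed at least 1 read per codon per library on average in each assay. Benjamini-Hochberg adjustment ran over all codons at a false discovery rate of 0.1, and DESeq2 1.42.0 was an alternative. Replicates are separate samples in the labels, and p-values measure only the spread between them.

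Gene names and sequences came from GENCODE v44 on GRCh38. For 228 of 12325 transcripts the name came from the study's supplementary table, and 8 pause codons have a sequence matched by name and length only. Coding sequences with TAA or TAG in frame (14) were left out. Python 3.11.15 was used for the rest.

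The members and gene lists were chosen with earlier results of these data known. Named codons were the highest in vehicle at 10 min and in mRNA-seq, up to 3 highest and lowest calls of each test, the lowest 10 to 60 min ratios, those next to the threshold and the highest in each gene list. Further codons named for their sequence context were chosen after their values were seen, and a few pause codons are counted but not reported here by name. Alternatives covered the rule's thresholds, other scaling, no filter on low counts, the replicate block, each replicate left out, and codons with shared bases left out, which was chosen after seeing the data. Every same-numbered pair correlated above 0.1 in its deviations only between 1.5 µM and 0.3 µM at 60 min (correlations 0.76, 0.27 and 0.55), where the block called 0 pause codons. For ribo-seq and mRNA-seq the pairing comes from the study's methods.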

Additional observations from a re-analysis of the deposited data

Results flagged for a closer look

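LAP3 codon 258 was the 1 of 37 named pause codons compared whose libraries lay on opposite sides of vehicle in the 2 studies. With 1.5 µM its density was 3.47 times that of vehicle at 10 min in study 1, where the 3 treated libraries lay above the 3 vehicle libraries, and 0.762 times that of vehicle at 60 min in study 2, where the treated libraries lay below the vehicle libraries. The study 2 difference was not called by edgeR, the times differ, and the difference between the studies was not tested.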

How the results depend on the processing

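The number of pause codons followed the thresholds, with 1802 at 10 times the mean, 121 at 40 times and 254 with at least 100 reads. Replicate 2 alone gave 879, and leaving out 1 of the 3 libraries gave 237 to 377. At 10 times the mean or more stood 391 pause codons in vehicle at 10 min, 322 in study 2 vehicle ribo-seq and 83 in mRNA-seq. Leaving out 1 library, the number at 20 times or more was 227 to 281, 181 to 192 and 47 to 48, and the median density 21.6 to 24.0, 16.8 to 18.1 and 1.43 to 1.70. Without codons that share bases with another gene the medians in study 2 were 16.1 in ribo-seq and 1.096 in mRNA-seq, and 20 were at 20 times or more in mRNA-seq.

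For 1.5 µM against vehicle at 10 min, pause codons called higher, 7 as reported, numbered 0 at a false discovery rate of 0.05, 12 with TMM and 12 with DESeq2 size factors as offset, 18 with 1 codon added on each side, 4 without a filter on low counts, 4 without shared codons and 0 to 22 with 1 library left out. Over all codons the higher calls, 3097 as reported, numbered 1058, 2827, 2723, 7247 and 1202 in the same order up to no filter. They were 69 to 8911 with 1 library left out. Those called lower, 4 as reported, numbered 1 at 0.05, 1 with the replicate block, 2 without a filter, 2 without shared codons and 0 to 5 with 1 library left out. The 4 include the ZFHX3 and SGF29 codons that passed the read filter only through vehicle. Over all codons the lower calls, 5620 as reported, numbered 2070, 4406 and 1255 in the same order up to no filter. They were 1 to 9919 with 1 library left out. Without a filter 2 were higher with 1.5 µM than with 0.3 µM at 60 min, where 4 of all codons were. In study 2, 1 was lower with the replicate block, where 3 of all codons were. For ribo-seq against mRNA-seq, called higher were 78 with the replicate block, 202 in all 8 libraries and 2 to 178 with 1 left out, beside 842, 65003 and 11 to 58257 of all codons. With TMM and with DESeq2 size factors 160 and 165 were called higher, beside 41240 and 45725 of all codons. Called lower were 5 with TMM, 8 with DESeq2 size factors, 0 with the block, 5 by DESeq2, 2 with 1 codon added on each side, 9 in all 8 libraries, 0 without a filter and 0 without shared codons. Over all codons the lower calls, 4714 as reported, numbered 33559, 38293, 725, 4267, 7344, 74587 and 1084 in the same order up to no filter. In all, 127 values stayed within the replicate spread or 1.5 times the reported count, and 52 did not. Many of the 127 are counts of 0 where 0 was reported, as in the comparisons of 0.3 µM with vehicle, 1.5 µM with 0.3 µM and study 2. The cause of each shift was not tested. At 10 min and in study 2 at 60 min the compound and vehicle samples shared only a number, and the block changed no further count by over 1.5 times.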

Other observations

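A few pause codons of study 1 were nearly or wholly without reads in study 2. The pause codons named here all had bases of their own. Those of SHARPIN were of the proline kind, and the rest had none of the sequence features above. HUNK codon 48 had densities of 554, 576 and 591 in vehicle at 10 min and 0 reads in all 4 study 2 ribo-seq libraries, and ZDHHC8 codon 352 had 509, 602 and 432 and also 0. SGF29 codon 58 had 55.3, 24.9 and 108 in vehicle at 10 min and 0 in study 2 ribo-seq, POLR1C codon 53 had 6.04 and 0, and SHARPIN codons 64 and 65 had 117 and 39.7 in vehicle at 10 min and 1.77 and 0 in study 2 vehicle ribo-seq. In vehicle mRNA-seq of study 2, ZDHHC8 codon 352 and POLR1C codon 53 also had a density of 0, HUNK codon 48 had 1.95 and SGF29 codon 58 had 1.12. What differed between the studies at these codons was not tested. GPX1 codon 48, the P-site codon before its selenocysteine codon, had 0 reads in vehicle ribo-seq and in mRNA-seq.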
